A study of Mus musculus with 233 samples.

Results

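The genes described here are 10 immediate early genes of the mouse striatum, matched by symbol to Ensembl identifiers among 41128 gene entries. Of these, 3 encode Fos proteins (Fos, Fosb and Fosl2), 3 encode Jun proteins (Jun, Junb and Jund), and 4 encode other early products (Arc, Npas4, Dusp1 and Ier2). All 10 passed the filter on low counts in each of the 5 paradigms, which gives 50 tests of a member in each comparison. The genes lie on GRCm38 at chr12:85473890-85477273 (Fos), chr7:19302696-19310051 (Fosb), chr5:32135801-32157842 (Fosl2), chr4:95049034-95052222 (Jun), chr8:84974484-84978718 (Junb), chr8:70698949-70700616 (Jund), chr15:74669083-74672570 (Arc), chr19:4984355-4990316 (Npas4), chr17:26505590-26562128 (Dusp1) and chr8:84661331-84662852 (Ier2). Their levels are given over all 30 groups, with the variance between mice and between the hemispheres of a mouse.

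Immediate early genes are transcribed within minutes of a synaptic or growth factor signal, without new protein synthesis. Fos and Jun proteins pair through leucine zippers to form the transcription factor AP-1, and calcium and cAMP signals reach their promoters through kinases, Creb and Srf. In the striatum, dopamine and glutamate acting on medium spiny neurons induce these genes, so that they are widely used as markers of recent neuronal activity.

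Bulk RNA was sequenced from the striatum of heterozygous zQ175 mice, whose mouse Htt has its exon 1 exchanged for the human HTT exon 1 carrying a long CAG tract, and from wild-type (WT) littermates that carry no such allele. Adeno-associated virus was injected into the striatum, with a different virus in each hemisphere of a mouse. The sides were fixed: in the 113 mice with both libraries, nZFP lay left of DBD, DBD left of Estop and Estop left of nZFP. The nZFP virus expressed the zinc finger repressor ZFP30645 from the neuronal human synapsin promoter, the DBD virus expressed that repressor without its DNA-binding domain from the same promoter, and the Estop virus held a stuffer sequence that encodes no protein. There were 5 paradigms, whose names join the months of age at injection and at collection. Injection was at 2 months in 2M_6M (4 months of treatment) and 2M_8M (6 months), and at 6 months in 6M_8M (2 months), 6M_10M (4 months) and 6M_12M (6 months). Lists of 5 values keep this order. All 30 groups carry 1 of the 3 viruses, so every level below is that of an injected hemisphere.

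The 233 libraries came from 120 mice, of which 113 gave 1 library from each hemisphere under different viruses and 7 gave 1 library. Groups held 6 to 8 libraries, each from another mouse, with totals of 28.0 to 61.3 (median 37.4) in units of 1000000 counts. Transcripts of the vectors went against the label in 4 libraries (WT DBD R7 and R8 and zQ175 nZFP R5 of 6M_8M, WT DBD R6 of 2M_6M), and 3 others held few counts of long genes (zQ175 DBD R3 of 2M_6M, WT DBD R2 and zQ175 nZFP R2 of 6M_10M). Htt, the gene the repressor is aimed at, was lower in zQ175 under DBD by a log2 fold change of -0.43 averaged over paradigms (SE 0.08, adjusted p = 3.3e-07). All 9 medium spiny neuron markers had a median above 1 CPM (counts per 1000000), from 172 to 2796 CPM, while 3 of 7 cortical projection neuron markers did, with medians of no more than 19.5 CPM. All 5 pallidal and septal neuron markers did as well, with medians from 1.52 to 20.1 CPM. Single libraries reached 99.3 CPM for the cortical marker Slc17a7, 246 CPM for the septal marker Zic1 and 639 CPM for Ttr, a choroid plexus marker.

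Promoter sequences are shown as a description of the genes, and their part in the variation between mice described below was not tested. RefSeq promoters on GRCm38.p6 were matched for 8 of the 10 genes, and not for Arc and Ier2. The letters TGACG, the core of the cAMP response element bound by Creb, were searched on both strands in the 250 bases before each RefSeq start. They stood in 5 of the 8 windows and in 17.8% of all 32851 promoters of that length. The stretches that hold them are given 5′ to 3′ on the gene's strand, at chr12:85473750-85473869 (Fos, plus strand), chr7:19310056-19310155 (Fosb, minus), chr8:84978799-84978898 (Junb, minus), chr17:26508573-26508672 (Dusp1, minus) and chr19:4990126-4990155 (Npas4, minus), with TGACG, its reverse complement CGTCA and the palindrome TGACGTCA in capitals.
Fos: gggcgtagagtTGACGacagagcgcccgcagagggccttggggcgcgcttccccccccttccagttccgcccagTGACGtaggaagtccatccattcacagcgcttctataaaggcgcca
Fosb: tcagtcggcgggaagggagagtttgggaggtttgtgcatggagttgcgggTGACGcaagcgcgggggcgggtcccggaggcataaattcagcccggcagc
Junb: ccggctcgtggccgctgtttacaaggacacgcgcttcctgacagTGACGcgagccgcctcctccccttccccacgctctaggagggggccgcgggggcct
Dusp1: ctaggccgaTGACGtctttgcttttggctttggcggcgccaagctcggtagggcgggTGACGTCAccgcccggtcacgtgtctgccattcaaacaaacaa
Npas4: ttcgaCGTCAcgggaTGACGtcggaagtct
Fos held TGACG at -129 to -125 and at -66 to -62 from its start, and a TATAAA box at -33 to -28, a motif found in 12.4% of all promoters. Dusp1 held the full palindrome TGACGTCA at -143 to -136, which 1.55% of all promoters hold. The AP-1 site TGANTCA (6.75% of all promoters) and the CArG box bound by Srf (1.47%) were not found in these 8 windows. A match describes letters in a window and is not a mapped binding site. By the gene annotation, the windows of Fosl2 and Npas4 lay wholly in exons, including the Npas4 stretch shown. Of the Dusp1 and Fosb windows, 47 and 6 bases were exonic. The Jund window (chr8:70697489-70697738) did not adjoin the gene start given above (70698949).

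Per transcript length, on the scale of TPM (transcripts per 1000000), Jund and Junb were the most abundant members, with medians of 116 and 105 TPM over the 233 libraries. Jund and Junb act as partners of Fos proteins, and Junb is itself induced early. Arc, whose product moves AMPA receptors from the synapse, followed at 77.8 TPM and Dusp1, a phosphatase that inactivates MAP kinases, at 33.6 TPM. The levels of Jun (18.7 TPM), Fos (14.4), Fosb (11.8) and Fosl2 (9.80) were lower, and Ier2, a small nuclear regulator, stood at 3.34 TPM and Npas4, a calcium-dependent neuronal transcription factor, at 2.70 TPM. Some neighbours in this order were close: Jund was above Junb in 131 of 233 libraries, Fos above Fosb in 136, Fosb above Fosl2 in 151 and Ier2 above Npas4 in 135. Others kept their order in most libraries, Arc above Dusp1 in 222, Dusp1 above Jun in 220, Fosl2 above Ier2 in 212 and Junb above Arc in 202.

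**Figure D1:**
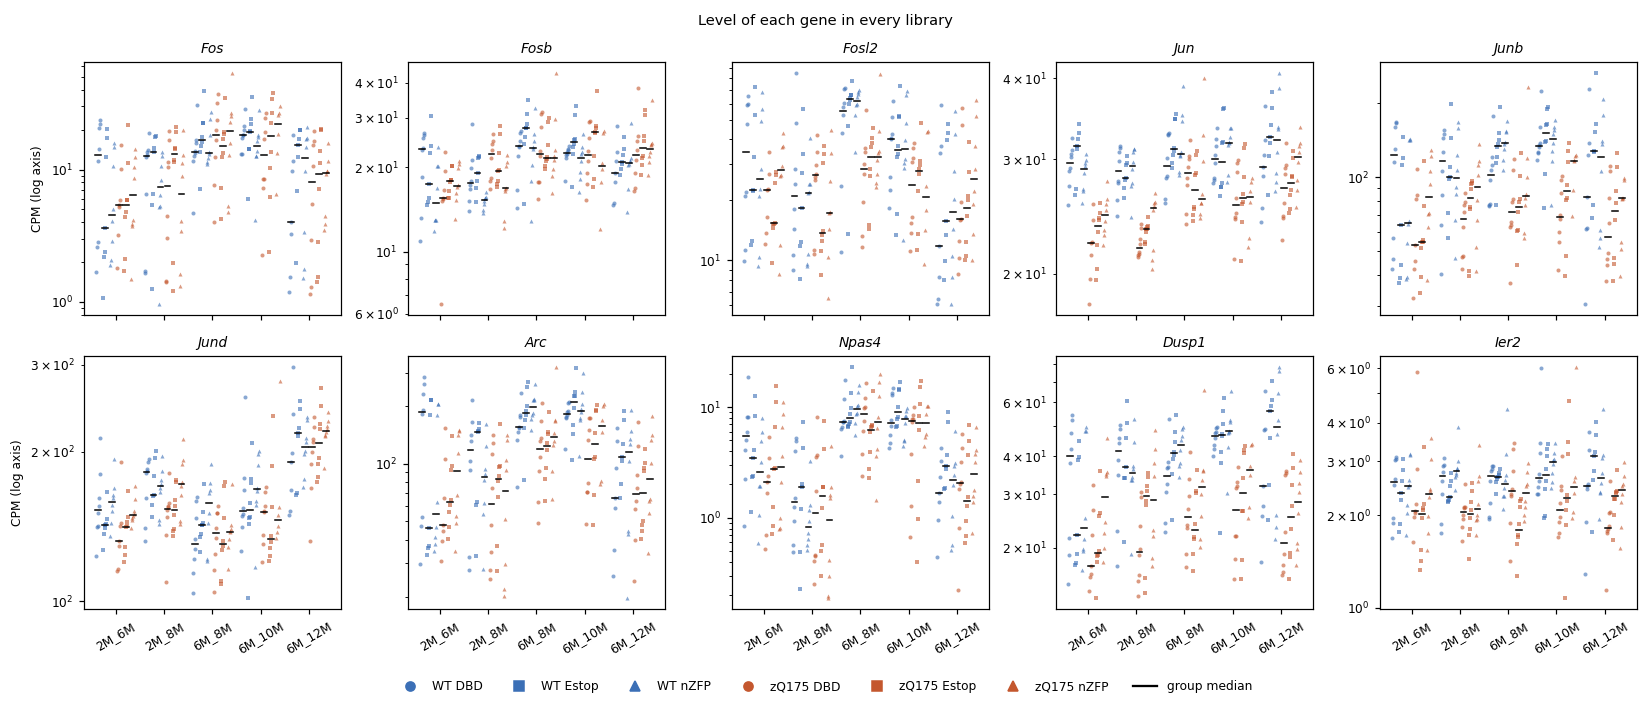
Level of each member in every library (points, CPM on a log axis) by paradigm on the horizontal axis, with colour for genotype, shape for virus and a bar at each group median. Fos, Npas4, Arc, Fosl2, Junb and Dusp1 spread over most of their range within single groups, while Jun, Jund and Fosb keep to a narrower band and Jun is lower in zQ175 groups.

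Members fell into genes with wide and with narrow ranges. Npas4 ran from 0.190 to 22.9 CPM over all libraries, a 120-fold range, and Fos from 0.970 to 53.1 CPM (54.8-fold). Arc spanned 16.1-fold (19.9 to 320 CPM), Fosl2 13.9-fold (6.10 to 84.6 CPM), Junb 8.54-fold (30.7 to 262 CPM) and Dusp1 5.67-fold (13.8 to 78.0 CPM). Jun and Jund spanned 2.26-fold (18.0 to 40.7 CPM) and 2.91-fold (102 to 296 CPM). Fosb spanned 6.62-fold and Ier2 5.61-fold, and the lowest Fosb library (6.52 CPM) and the 3 highest Ier2 libraries (5.83 to 6.05 CPM) were those with few counts of long genes.

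Group medians of Fos lay between 3.63 CPM (WT Estop, 2M_6M) and 22.2 CPM (zQ175 nZFP, 6M_10M). The libraries of a genotype within a paradigm, pooled over all viruses, covered much of that span. Most mice count in such a pool with both hemispheres. In 2M_6M, Fos had its lowest, median and highest library at 1.07, 5.01 and 23.8 CPM in WT mice (23 libraries). In zQ175 mice (23 libraries) they were at 1.49, 5.41 and 21.7 CPM. In 6M_10M the values were 4.17, 18.0 and 35.3 CPM in WT mice (24 libraries) and 2.28, 17.8 and 38.1 CPM in zQ175 mice (22 libraries). The genotypes overlapped almost wholly in both paradigms, and 2M_6M held more libraries of low Fos than 6M_10M did.

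Npas4 had the widest span of group medians. Pooled over viruses as for Fos, its lowest, median and highest WT libraries stood at 0.226, 1.19 and 7.27 CPM in 2M_8M (23 libraries). They stood at 3.59, 8.04 and 22.9 CPM in 6M_8M (24 libraries), a paradigm collected at the same age. In zQ175 mice the values were 0.190, 1.36 and 8.16 CPM in 2M_8M and 1.46, 6.67 and 19.9 CPM in 6M_8M. Group medians ran from 0.828 CPM (WT nZFP, 2M_8M) to 9.58 CPM (WT nZFP, 6M_8M). Paradigms differ in age, time since injection and the cohort handled, which cannot be told apart, so their levels were not tested against each other.

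Arc also spread widely among the libraries of a genotype within a paradigm, again pooled over viruses. In WT mice its lowest, median and highest libraries were at 29.9, 62.7 and 283 CPM in 2M_6M and at 104, 188 and 317 CPM in 6M_10M. In zQ175 mice they were at 30.8, 64.3 and 153 CPM in 2M_6M and at 47.7, 139 and 205 CPM in 6M_10M. Fosl2, which encodes the Fos protein Fra-2, reached its highest group median in WT Estop of 6M_8M (63.3 CPM) and its lowest in WT DBD of 6M_12M (11.7 CPM). Jund was highest in 6M_12M, where its WT libraries ran from 149 to 296 CPM with a median of 205, against 104 to 189 CPM with a median of 143 in 6M_8M.

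Mice, rather than hemispheres, carried most of the spread of 6 members, and of Fosb as well on the CPM scale. After group means and sex were removed, the share of the variance of log2 CPM that lay between mice was 88.9% for Fosl2, 88.4% for Fos, 87.2% for Arc, 82.6% for Dusp1, 80.6% for Junb, 73.3% for Npas4 and 54.0% for Fosb. It was 28.4% for Jun, 23.1% for Jund and 3.01% for Ier2. On the TPM scale the share was 47.2% for Fosb, 46.0% for Jun, 49.9% for Jund and 11.1% for Ier2. Over all 16792 genes the median share was 25.7%, and 10% of genes were above 55.1%, as were 6 of the 10 members. The median over the members was 77.0%, and it was 83.4% with the degrees of freedom of the group means taken up, against 27.4% over all genes.

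**Figure D2:**
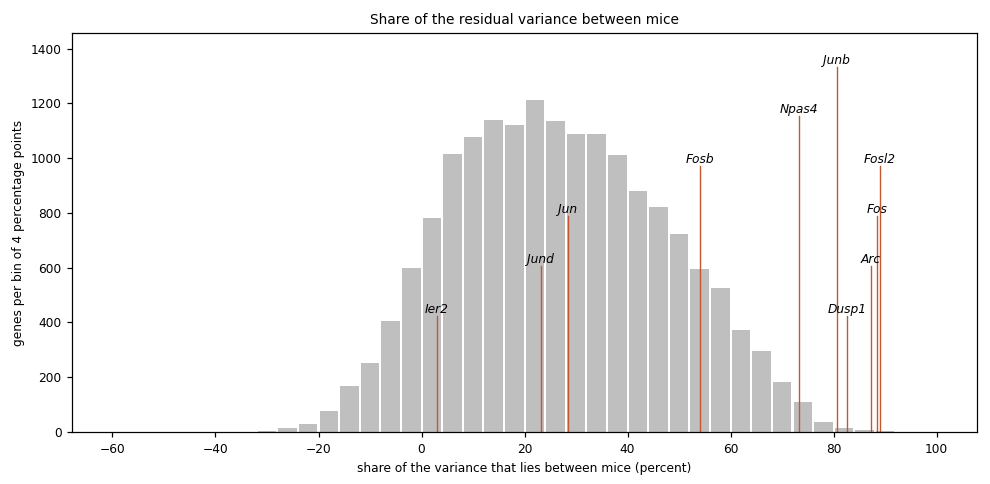
Share of the residual variance of log2 CPM that lies between mice (horizontal axis, percent) for all genes tested (grey bars, number of genes per bin) and for the 10 members (orange lines, whose height only separates the names). Beyond the 55.1% that marks the 90th percentile of all genes lie 6 members, and Jun, Jund and Ier2 lie within the bulk.

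For Fos, the standard deviation between mice was 1.07 on the log2 scale and that between the hemispheres of a mouse was 0.39. The hemispheres of a mouse differed by a median of 1.27-fold, while mouse means spanned 17.6-fold. The lowest mouse for Fos, a zQ175 mouse of 2M_8M, had 1.2 CPM in its Estop hemisphere and 1.33 CPM in its nZFP hemisphere. The highest, a WT mouse of 2M_6M, had 23.8 CPM under DBD and 20.4 CPM under Estop. Both hemispheres lay on the same side of their group means in 98 of 113 mice for Fos, 101 for Fosl2, 97 for Arc, 94 for Dusp1 and 89 for Junb, and in 64 for Jund and 61 for Ier2.

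Left and right deviations were correlated over the 113 mice, closely for Fos and Arc and weakly for Jun and Jund. Pearson's r was 0.89 for Fos (Spearman's rho 0.88) and 0.87 for Arc (rho 0.87), each with a two-sided permutation p of 1e-05, the smallest that 100000 permutations can give. It was 0.28 for Jun (rho 0.28, permutation p = 0.0028 and 0.0034), 0.23 for Jund (rho 0.22, permutation p = 0.026 and 0.024) and 0.05 for Ier2 (rho 0.12, permutation p = 0.64 and 0.25). Over all 16792 genes the median r was 0.27, so Jun and Jund lay near the value of a typical gene. Without the 3 libraries with few counts of long genes, r for Ier2 was 0.23 and its share between mice 21.9%. These are 10 unadjusted correlations. Without the 2 mice farthest from the median, r was 0.88 for Fos, 0.87 for Arc, 0.28 for Jun and 0.21 for Jund.

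Within paradigms, r for Fos was 0.91, 0.95, 0.77, 0.85 and 0.88 over 22 to 24 mice each, and for Arc 0.90, 0.92, 0.77, 0.82 and 0.87. Junb gave 0.89, 0.93, 0.40, 0.74 and 0.90, and Jun 0.48, 0.33, -0.01, 0.44 and 0.42. The 6M_8M paradigm was lowest for these 4 members. The zQ175 mouse with the library labelled nZFP R5, 1 of those that contradict their labels, belongs to it. That mouse had the largest hemisphere difference for Junb (230 CPM there and 79.3 CPM under DBD), Jun (40.0 and 28.0 CPM) and Dusp1 (65.7 and 26.8 CPM). Hemispheres of a mouse share that mouse's day and handling, which cannot be told apart from the mouse.

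**Figure D3:**
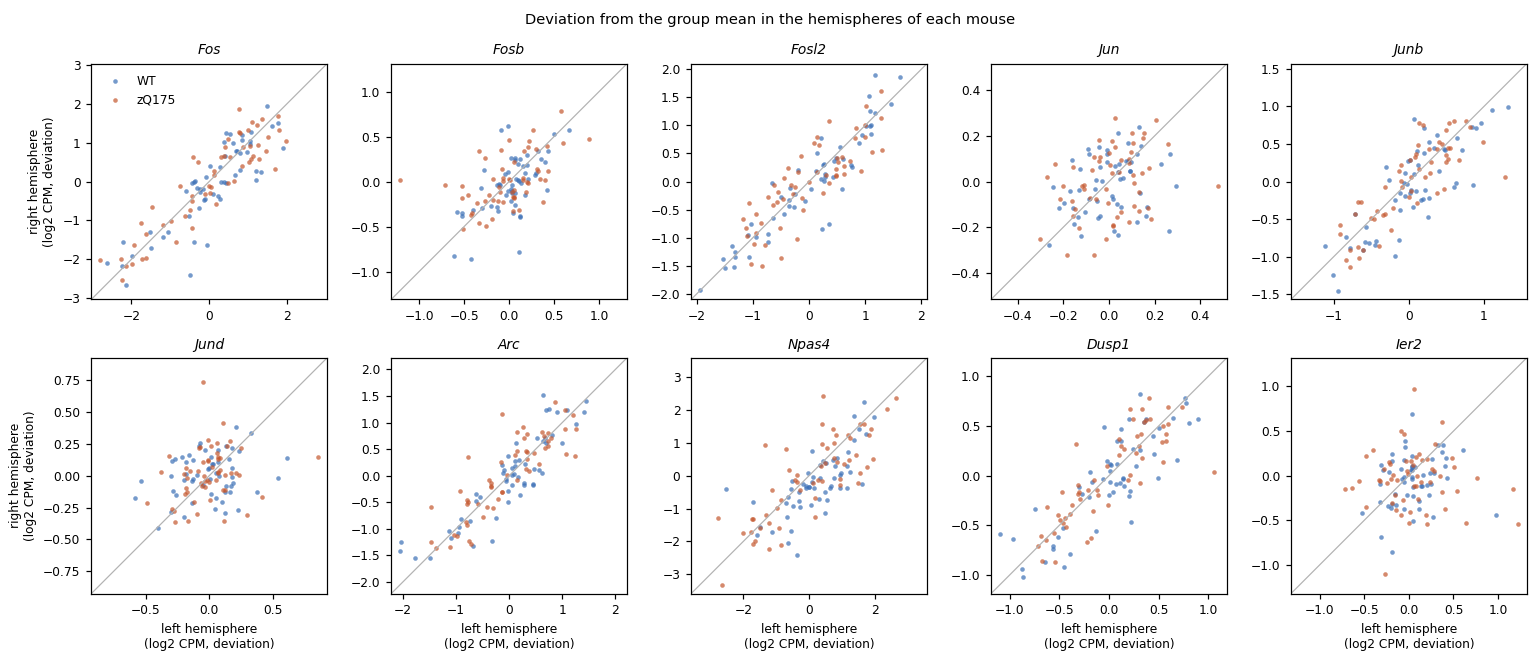
Deviation of log2 CPM from the group mean in the left (horizontal axis) and right (vertical axis) hemisphere of each of 113 mice, 1 panel per member, with the line of equality. Points of Fos, Fosl2, Arc, Dusp1 and Junb follow the line, and points of Ier2 and Jund form round clouds.

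Members varied together from mouse to mouse. Pairs of other genes were not counted, so the counts that follow have no background share. Of the members' 45 pairs, 44 had a positive correlation of mouse means, with a median r of 0.48, and 19 had r above 0.6. The closest were Junb with Dusp1 (r = 0.95, rho = 0.94), Fos with Dusp1 (0.94, rho 0.95), Fos with Junb (0.93, rho 0.93) and Fos with Arc (0.92, rho 0.93), each with an unadjusted permutation p of 1e-05 for both measures. Without the 2 farthest mice r was 0.94, 0.94, 0.93 and 0.92, and within the paradigms it was no lower than 0.87 for any of these 4 pairs. Jund stood apart, with r of 0.0002 to Fos (rho -0.02, permutation p = 1.00 and 0.80) and 0.04 to Arc (rho 0.02, permutation p = 0.63 and 0.87). Jun with Fos gave 0.33 (rho 0.31), from -0.06 in 2M_6M to 0.63 in 6M_10M. Between the hemispheres of a mouse the median r of the 45 pairs was 0.34.

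The genes outside the 10 whose mouse means were most like those of Fos, among 12762 searched, were Egr2 (r = 0.85), Arl4d (0.85), Btg2 (0.84), Nr4a1 (0.83) and Apold1 (0.76). For Arc they were Egr2 (0.87), Arl4d (0.83), Nr4a1 (0.83), Spry2 (0.81) and Sik1 (0.80). For Jun likeness was weaker, led by Sik1 (0.51), Adamts1 (0.51), Ccn1 (0.51), Zfp36l1 (0.48) and Dll4 (0.45). All are Pearson correlations over the same 113 mice and share those libraries. Against 12 library measures (depth, mitochondrial share, a slope over gene length and 9 cell type marker sums), mouse means of Fos gave r from -0.21 to 0.13 and Arc from -0.13 to 0.14. The widest was Ier2 with the length slope (-0.36). The part of these measures in the members' variance was not tested.

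In zQ175 mice under DBD, several early genes were lower than in WT mice under DBD. Averaged over the 5 paradigms, 6 of the 10 members passed an adjusted p of 0.05, all lower in zQ175, against 46.9% of all 16792 genes called in either direction and 22% called lower. They were Junb (log2 fold change -0.71, SE 0.13, adjusted p = 8.2e-07), Dusp1 (-0.68, SE 0.11, adjusted p = 1.9e-08), Arc (-0.60, SE 0.18, adjusted p = 0.0029), Fosl2 (-0.48, SE 0.19, adjusted p = 0.029), Jun (-0.24, SE 0.03, adjusted p = 2.3e-10) and Ier2 (-0.24, SE 0.08, adjusted p = 0.010). Fos (-0.16, SE 0.25, adjusted p = 0.63), Npas4 (-0.36, SE 0.26, adjusted p = 0.25), Fosb (0.03, SE 0.07, adjusted p = 0.79) and Jund (-0.11, SE 0.05, adjusted p = 0.054) did not pass in edgeR. Jund passed as lower under 5 of 9 alternatives, among them DESeq2 (-0.11, adjusted p = 0.046) and the fit without the 3 libraries with few counts of long genes (-0.12, adjusted p = 0.025). The median over the members was -0.30, and over all genes 0.01. Each of the 6 also passed with Estop in place of DBD. Fosl2 did not pass with the mouse as a random effect in limma-voom (-0.34, adjusted p = 0.088).

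Within paradigms, 8 of 50 tests passed under DBD, all lower in zQ175, where 19.8% of all tests passed in either direction and 9.48% passed as lower. Dusp1 passed in 3 paradigms. In 6M_10M its lowest, median and highest libraries stood at 40.0, 46.6 and 49.9 CPM in WT (n = 8) and at 15.8, 26.7 and 36.8 CPM in zQ175 (n = 8). The groups did not overlap, and the log2 fold change was -0.81 (SE 0.19, adjusted p = 0.00085). How many of all genes showed no overlap was not counted, and 24.2% of them were called in 6M_10M, 12.3% lower. In 2M_8M the values were 17.5, 41.5 and 50.4 CPM in WT and 14.0, 19.4 and 30.4 CPM in zQ175, with overlap at the lower end and a log2 fold change of -0.85 (SE 0.24, adjusted p = 0.0077). In 2M_6M it was -0.78 (SE 0.29, adjusted p = 0.035), from 15.2, 40.0 and 54.4 CPM in WT and 14.5, 17.5 and 32.2 CPM in zQ175. That call was lost in 6 of 10 alternatives. Among them were the fits without WT DBD R6, whose vector transcripts contradict its label (-0.68, adjusted p = 0.079), and without zQ175 DBD R3 (-0.71, adjusted p = 0.091).

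Jun, the founding AP-1 subunit, had a small and tightly measured difference. In 2M_8M its lowest, median and highest libraries were at 24.5, 28.8 and 31.4 CPM in WT and at 21.2, 21.9 and 23.8 CPM in zQ175. No zQ175 library reached the lowest WT library, and the log2 fold change was -0.36 (SE 0.06, adjusted p = 3.7e-06). The share of all genes without overlap was not counted, and 18.7% of them were called in 2M_8M, 9.37% lower. In 2M_6M the values were 25.5, 29.7 and 32.4 CPM against 18.0, 22.3 and 25.6 CPM, meeting only at the edge (-0.42, SE 0.07, adjusted p = 5.6e-06). In 6M_10M Jun differed by -0.21 (SE 0.08, adjusted p = 0.046), and in 6M_8M and 6M_12M by -0.08 and -0.13 without passing (adjusted p = 0.64 and 0.38). Reads of Junos, an antisense gene overlapping Jun, and of genes overlapping Junb, Jund and Dusp1 may be included, since it is not given whether counting used the strand.

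Junb and Arc passed in 1 paradigm each, 6M_10M. Junb stood there at 117, 134 and 222 CPM in WT (lowest, median, highest) and at 42.2, 68.8 and 101 CPM in zQ175, with no overlap (-1.0, SE 0.21, adjusted p = 0.00027). Other genes without overlap were not counted there. Arc stood at 119, 183 and 211 CPM in WT and at 48.2, 106 and 173 CPM in zQ175, with overlapping ranges (-0.69, SE 0.26, adjusted p = 0.043). For Fos the 5 paradigms gave -0.85, -0.26, 0.36, -0.42 and 0.39 with SE of 0.40 to 0.64, and for Npas4 -1.50, -0.12, 0.00, -0.59 and 0.29 with SE of 0.40 to 0.70, none of which passed. In a joint test by edgeR no member passed for a difference of the genotype effect between paradigms (smallest adjusted p = 0.22, for Jun, 1 of 10 at an unadjusted p under 0.05, 0.363% of all genes called). With Estop in place of DBD, Dusp1 in 2M_6M (-0.37, adjusted p = 0.41) and 2M_8M (-0.57, adjusted p = 0.11), and Arc (-0.62, adjusted p = 0.075) and Jun (-0.19, adjusted p = 0.089) in 6M_10M no longer passed.

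**Figure D4:**
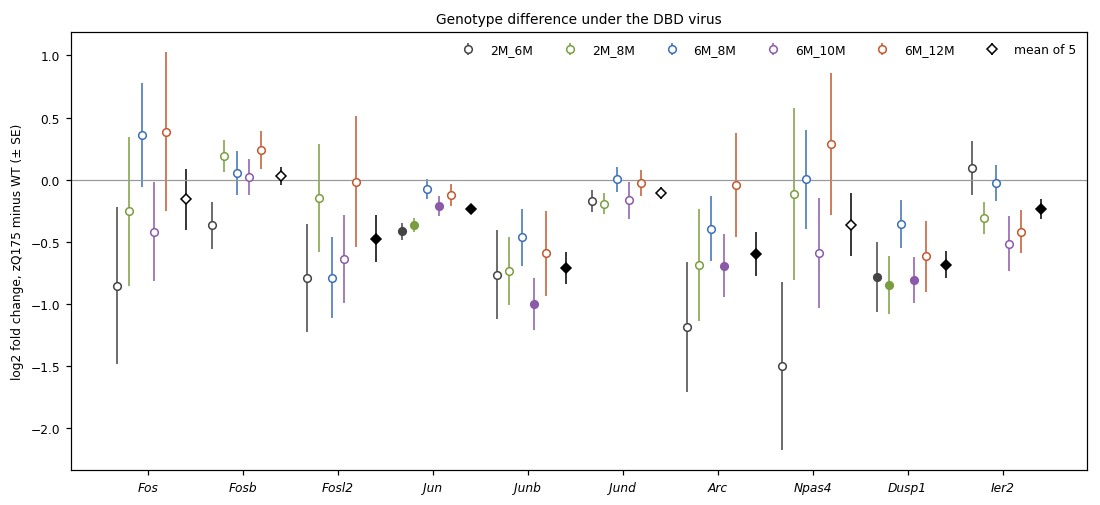
Log2 fold change of zQ175 DBD against WT DBD (vertical axis, points with SE) for each member in the 5 paradigms and averaged over them (black diamonds), where filled symbols passed an adjusted p of 0.05. The averages of Fosl2, Jun, Junb, Arc, Dusp1 and Ier2 are filled and below 0, and the error bars of Fos and Npas4 are the widest.

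Summed medium spiny neuron markers, 9 genes, ranged from 6381 to 13457 CPM (median 11672) in the 39 WT DBD libraries and from 4778 to 7645 CPM (median 6041) in the 39 zQ175 DBD libraries. Without the 3 WT DBD libraries with contradicting vector transcripts the lowest WT value was 8832 CPM and the ranges did not overlap. Astrocyte marker sums had medians of 752 and 712 CPM and microglial sums 363 and 343 CPM, with wide overlap. The part of the lower spiny neuron transcripts in the members' difference was not tested. In tissue RNA, fewer cells of a type and less RNA per cell cannot be told apart.

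Under nZFP, 3 members were lower in zQ175 when averaged over paradigms. These libraries come in part from the other hemispheres of the mice above, so the comparisons are not independent. Averaged over paradigms, Dusp1 (-0.39, SE 0.11, adjusted p = 0.0022), Jun (-0.21, SE 0.03, adjusted p = 1.6e-08) and Junb (-0.34, SE 0.13, adjusted p = 0.031) were lower in zQ175, 3 of 10 members, where 36.3% of all genes were called and 17% were called lower. Arc was at -0.25 (adjusted p = 0.28), Fosl2 at -0.23 (adjusted p = 0.37) and Ier2 at -0.17 (adjusted p = 0.079). Within paradigms 3 of 50 tests passed, all lower (12.3% of all tests passed, 6.11% lower): Jun in 2M_8M (-0.26, adjusted p = 0.0029) and 6M_10M (-0.30, adjusted p = 0.010) and Dusp1 in 6M_12M (-0.80, adjusted p = 0.043). When the 4 libraries with contradicting vector transcripts were left out the count was 7, with Jun (-0.24), Fosl2 (-0.93), Junb (-0.73) and Dusp1 (-0.57) added in 6M_8M, where zQ175 nZFP R5 was left out. Over all genes, calls in that paradigm went from 2731 of 16000 (1468 lower) to 3172 of 16141 (1586 lower).

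The comparison of nZFP with DBD in zQ175 mice addresses the levels of these genes under the repressor. It uses the same zQ175 DBD libraries as the genotype comparison under DBD, with the opposite sign, so these comparisons are not independent. Of 50 tests, 0 passed by edgeR or DESeq2, which treated libraries as independent although 18 mice gave 1 to each group. By limma-voom, with the mouse as a random effect, 0 passed as well. That fit took the same correlation within a mouse for all genes. The share of variance between mice was 82.6% for Dusp1 and 25.7% for the median gene, so the pairing of such members was taken up only in part. By edgeR 6 had an unadjusted p under 0.05, where 6.49% of all tests passed after adjustment and 17% before it. The differences of Dusp1, Junb, Arc and Jund were above 0 in all 5 paradigms, from 0.18 to 0.54 for Dusp1 and from 0.13 to 0.55 for Junb. Averaged over paradigms 3 members were higher under nZFP: Dusp1 (0.39, SE 0.11, adjusted p = 0.0054), Junb (0.39, SE 0.13, adjusted p = 0.023) and Jund (0.15, SE 0.05, adjusted p = 0.025), where 17.1% of all genes were called, 8.61% higher. Within mice, as described next, Jund did not pass against DBD (0.08, adjusted p = 0.46) or Estop (0.05, adjusted p = 0.40). With Estop as the control none of the 10 passed by edgeR, at 0.25 (adjusted p = 0.12), 0.27 (adjusted p = 0.17) and 0.10 (adjusted p = 0.18). Junb also did not pass when the 4 libraries with contradicting vector transcripts were left out (0.34, adjusted p = 0.055). In a joint test by edgeR no member passed for a difference of nZFP minus DBD between paradigms (0 of 10 at an unadjusted p under 0.05, smallest adjusted p = 0.39, 3.36% of all genes called).

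Because most of the spread lay between mice, viruses were then compared between the hemispheres of the same mouse, an analysis added after the values above were seen. Since each pair of viruses always had the same sides, a difference within 1 pair cannot be told apart from left against right. The 3 pairs form a circle, so a second limma fit over all mice of a genotype estimated virus and side together, taking the side difference as equal in the 3 pairs. With the mouse as a fixed block in edgeR, 5 of 50 tests passed in zQ175 mice (2.91% of all tests): Dusp1 in 2M_6M (0.41), 2M_8M (0.42) and 6M_12M (0.26), Junb in 2M_8M (0.43) and Fosb in 6M_10M (-0.38). The same 5 passed with hemisphere added to that fit (3.27% of all tests). Over paradigms, limma was fitted to the difference of log2 CPM between hemispheres across all 16792 genes. Each pair of viruses comes from different mice.

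In the 18 zQ175 mice with nZFP in 1 hemisphere and DBD in the other, 2 members passed, where 7.8% of all genes did. Junb had median levels of 82.4 CPM under nZFP and 67.7 CPM under DBD, and differences from -0.24 to 1.54 with a median of 0.25. It was higher under nZFP in 16 of 18 mice, by a mean log2 difference of 0.33 (SE 0.08, adjusted p = 0.0135). Dusp1 had medians of 28.8 and 23.1 CPM and differences from -0.20 to 1.29, and was higher in 16 of 18 mice as well, by 0.29 (SE 0.07, adjusted p = 0.0138). The largest difference of both was that of the mouse with the library labelled nZFP R5 of 6M_8M. Without it, over 17 mice, they were 0.26 (adjusted p = 0.0063) and 0.23 (adjusted p = 0.0085). In these mice nZFP was always on the left. With side fitted, over 57 zQ175 mice, Junb (0.31, SE 0.06, adjusted p = 3.1e-05) and Dusp1 (0.29, SE 0.04, adjusted p = 9.0e-07) passed in limma, and so did Arc (0.17, SE 0.06, adjusted p = 0.037), where 15.6% of all genes did. Without the libraries with contradicting vector transcripts Junb and Dusp1 passed and Arc did not.

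In the 19 other zQ175 mice, with Estop in the second hemisphere, 3 members passed, where 18.3% of all genes did. Dusp1 had medians of 34.3 CPM under nZFP and 30.3 CPM under Estop, and was higher under nZFP in 17 of 19 mice, by 0.21 (SE 0.04, adjusted p = 0.00021). Junb was higher in 13 of 19 mice, by 0.16 (SE 0.06, adjusted p = 0.049). Fosb, whose splice product DeltaFosB is long-lived, was higher in only 2 of 19 mice, with medians of 19.6 and 21.4 CPM and a mean difference of -0.24 (SE 0.05, adjusted p = 0.0017). In these mice nZFP was always on the right. With side fitted, Dusp1 (0.20, SE 0.04, adjusted p = 0.00048), Junb (0.19, SE 0.06, adjusted p = 0.013) and Fosb (-0.27, SE 0.06, adjusted p = 0.00021) passed, where 15% of all genes did. Fos itself was at -0.0041 against DBD (adjusted p = 0.98) and at -0.12 against Estop (adjusted p = 0.23) with side fitted.

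In WT mice, which lack the expanded allele, 4 members were lower in the right hemisphere, under nZFP, than in the left, under Estop (18 mice, 9.36% of all genes called), and 1 of them passed with side fitted. Npas4 had medians of 3.83 and 6.58 CPM, differences from -1.91 to 1.48 and a mean of -0.69 (SE 0.17, adjusted p = 0.011). Fos was lower by a mean of -0.29 (SE 0.07, adjusted p = 0.0070; 12.9 and 15.7 CPM), Fosb by -0.32 (SE 0.07, adjusted p = 0.0061; 17.4 and 22.3 CPM) and Fosl2 by -0.21 (SE 0.06, adjusted p = 0.017; 28.5 and 33.2 CPM). Each of Npas4, Fos and Fosb was higher under nZFP in only 2 of 18 mice, and Fosl2 in 3. Arc differed by -0.12 and did not pass (adjusted p = 0.051).

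With side fitted, over 56 WT mice, Fosb was lower under nZFP than under Estop (-0.27, SE 0.05, adjusted p = 0.00021), where 12.8% of all genes were called. Fosl2 (-0.17, adjusted p = 0.067), Fos (-0.18, adjusted p = 0.11) and Npas4 (-0.28, adjusted p = 0.13) did not pass. Without the libraries with contradicting vector transcripts Fosb (-0.28), Fosl2 (-0.20, adjusted p = 0.0021) and Arc (-0.13, adjusted p = 0.011) passed, and Fos and Npas4 did not. The same fit put Npas4 higher on the left than on the right in WT mice, by 0.41 (SE 0.09, adjusted p = 0.0031), 1 of 10 members where 3.12% of all genes were called. In zQ175 mice its side difference was 0.12 (adjusted p = 0.46), with 0 members called by limma, 0 at an unadjusted p under 0.05 and 0.191% of all genes called. The side difference of Npas4 did not pass for a difference between genotypes (-0.30, adjusted p = 0.83).

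**Figure D5:**
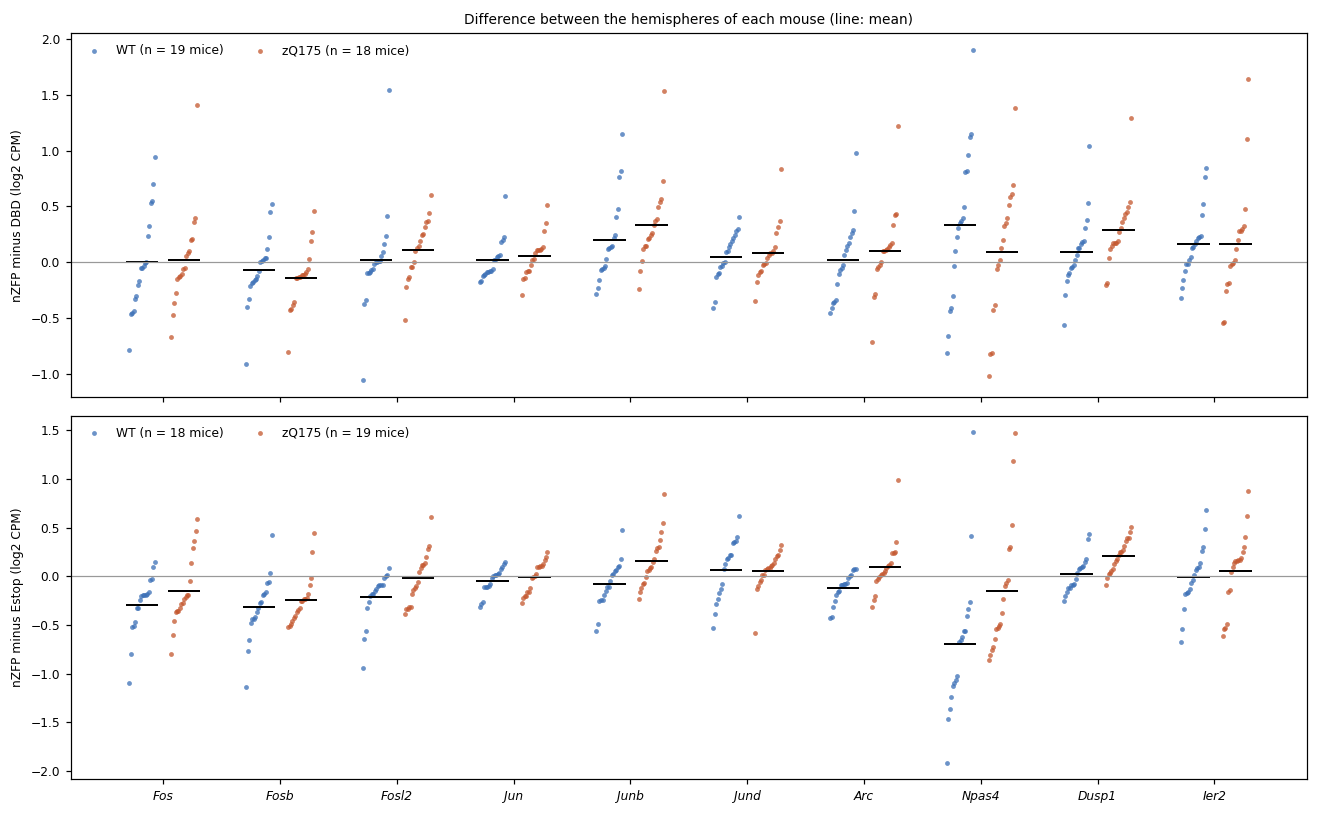
Difference of log2 CPM between the hemispheres of each mouse (points) with the mean (bars), nZFP minus DBD above and nZFP minus Estop below, for WT and zQ175 mice. Dusp1 and Junb lie mostly above 0 in zQ175 mice in both panels, and Fos, Fosb, Fosl2 and Npas4 lie mostly below 0 in WT mice in the lower panel. Fos, Fosb and Npas4 lie mostly below 0 in zQ175 mice there as well. nZFP was on the left in the upper panel and on the right in the lower one.

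Against DBD, no member passed within the 19 WT mice by limma (3 at an unadjusted p under 0.05, 2.98% of all genes called), and Npas4 differed by 0.33 (SE 0.14, adjusted p = 0.23). With side fitted no member passed either (1 at an unadjusted p under 0.05, 4.75% of all genes called). Between WT libraries, nZFP against DBD gave 0 of 50 calls by edgeR and DESeq2, which treated libraries as independent. It also gave 0 by limma-voom, with the mouse as a random effect. By edgeR 1 had an unadjusted p under 0.05. Of all tests 0.911% passed after adjustment and 12.1% before it. Averaged over paradigms 0 of 10 members passed by these tools, with 0 by edgeR at an unadjusted p under 0.05 (3.33% of all genes after adjustment, 13.1% before it). With Estop as the control, Fosb passed when averaged (-0.23, adjusted p = 0.035).

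No member passed between the 2 control viruses. DBD against Estop gave 0 of 50 calls by edgeR, DESeq2 and limma-voom in each genotype, where 1.05% (zQ175) and 0.266% (WT) of all tests were called after adjustment and 8.29% and 5.59% before it, with 1 member test in zQ175 and 0 in WT at an unadjusted p under 0.05 by edgeR. Averaged over paradigms it gave 0 of 10, adjusted or not, where 2.7% (zQ175) and 3.26% (WT) of all genes were called after adjustment and 10.5% and 11.9% before it. Within mice 0 members passed by limma in either genotype (4 in zQ175 and 2 in WT at an unadjusted p under 0.05, with 1.7% and 2.72% of all genes called). With side fitted 0 passed as well (5 in zQ175 and 3 in WT at an unadjusted p under 0.05, with 3.07% and 4.98% of all genes called). With the mouse as a fixed block in edgeR 0 of 50 passed (smallest adjusted p = 0.090 in zQ175 and 0.24 in WT). There 8 tests in zQ175 and 3 in WT had an unadjusted p under 0.05, and 41 and 37 of 50 were lower under DBD. Of all tests 0.368% and 0.275% were called. The share of all genes at an unadjusted p under 0.05 was not computed for any fit within mice. Arc differed within zQ175 mice by -0.22 and was higher under DBD in 4 of 20 mice, which did not pass (adjusted p = 0.084).

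Whether the change under nZFP depended on genotype was tested directly. Between libraries the interaction gave 0 of 50 calls by edgeR, DESeq2 and limma-voom, with 3 by edgeR at an unadjusted p under 0.05 (1.06% of all tests called after adjustment, 10.9% before it). With the mouse as a fixed block 4 passed (0.972% of all tests), all with a change in zQ175 above that in WT: Dusp1 in 2M_6M (0.38) and 2M_8M (0.59), Junb in 2M_8M (0.52) and Fosl2 in 2M_8M (0.61). The same 4 passed with hemisphere added (1.17% of all tests). Within mice over paradigms, the change from Estop to nZFP was higher in zQ175 than in WT mice for Junb (by 0.24, SE 0.08, adjusted p = 0.046), Arc (0.21, SE 0.07, adjusted p = 0.043) and Dusp1 (0.19, SE 0.06, adjusted p = 0.028), 3 of 10 where 11.1% of all genes were called. With side fitted none of the 3 passed by limma (Junb 0.16, adjusted p = 0.32; Arc 0.13, adjusted p = 0.40; Dusp1 0.15, adjusted p = 0.17), with 1 member at an unadjusted p under 0.05 and 4.44% of all genes called. When the 4 libraries with contradicting vector transcripts were also left out, Dusp1 passed (0.16, adjusted p = 0.040). For the change from DBD to nZFP no member passed for a difference between genotypes by limma (0 at an unadjusted p under 0.05, 0.0476% of all genes called), with Dusp1 at 0.19 (adjusted p = 0.80). With side fitted Dusp1 passed (0.23, SE 0.06, adjusted p = 0.020), 1 of 10 where 3.38% of all genes were called, and without those 4 libraries Junb passed as well (0.23, adjusted p = 0.035).

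Jund was lower in female than in male mice by a log2 fold change of -0.13 (SE 0.03, adjusted p = 0.00071), 1 of 10 members called, where 11.3% of all genes were. With all libraries in 1 edgeR fit, no member passed between the left and right hemispheres (1 at an unadjusted p under 0.05, 2.72% of all genes called), and the highest value was that of Npas4, 0.30 for left minus right (SE 0.15, adjusted p = 0.34).

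Among 31 other immediate early genes tested, 18 were lower and 4 higher in zQ175 under DBD averaged over paradigms, where 22% of all genes were called lower and 24.9% higher, with a median of -0.32 against 0.01 over all genes and a median share of variance between mice of 60.4%. Egr2, a zinc finger factor, was lower by -2.05 (SE 0.21, adjusted p = 8.9e-18) and higher under nZFP in zQ175 by 1.23 (SE 0.21, adjusted p = 5.3e-07). Dusp14, a phosphatase, was lower by -1.11 (SE 0.12, adjusted p = 1.4e-16) and Ier5 by -0.41 (SE 0.05, adjusted p = 5.5e-14), whereas Nr4a2, an orphan nuclear receptor, was higher by 1.36 (SE 0.17, adjusted p = 3.7e-12). Under nZFP against DBD in zQ175, 8 of the 31 were higher and 0 lower, where 8.61% and 8.52% of all genes were. The zQ175 DBD libraries enter this comparison and that of genotype, by which the named genes were picked. A rise here is therefore not independent of a lower level there.

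Of 27 upstream regulators, 10 were lower and 2 higher in zQ175, against the 22% and 24.9% of all genes, with a median of -0.01. Rps6ka4 and Rps6ka5, which encode the kinases MSK2 and MSK1 that phosphorylate Creb and histone H3, were lower by -0.89 (SE 0.03) and -0.51 (SE 0.04), adjusted p = 3.1e-70 and 3.7e-24. Camk4, a calcium-dependent kinase, was lower by -0.58 (SE 0.06, adjusted p = 5.8e-18) and Srf by -0.30 (SE 0.04, adjusted p = 2.4e-10), and all 4 were higher under nZFP in zQ175 (0.36, 0.13, 0.38 and 0.21, adjusted p = 1.0e-21, 0.020, 6.3e-08 and 5.9e-05). These 4 genes were picked by the genotype comparison, which shares its zQ175 DBD libraries with that of nZFP. Their rise is therefore not independent of their lower level. Rps6ka4 and Rps6ka5 had 9.18% and 12.5% of their variance between mice, against 65.8% for Srf.

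Of 14 AP-1 partners, 9 were lower and 2 higher, against 22% and 24.9% of all genes, with small sizes: Nfe2l1 -0.16, Atf2 -0.13, Ddit3 -0.21 and Jdp2 0.16 (adjusted p of 9.7e-08, 1.4e-07, 5.8e-06 and 8.8e-05). Of 20 late response genes, 12 were lower and 5 higher, where 22% and 24.9% of all genes were. Penk, which encodes enkephalin and is also a marker of indirect pathway spiny neurons, was lower by -1.31 (SE 0.06, adjusted p = 1.8e-57), Homer1 by -0.84 (SE 0.05, adjusted p = 6.4e-39) and Inhba by -0.82 (SE 0.07, adjusted p = 1.0e-25). Nrn1 was higher by 2.69 (SE 0.13, adjusted p = 1.2e-51). Of their variance, the share between mice was 24.1% for Nrn1, 27.7% for Penk, 37.0% for Homer1 and 47.9% for Inhba. The wider lists describe these samples by counts and carry no test of a list.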

How the data were processed

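Bulk RNA sequencing of 233 striatal libraries was analysed. The deposited table of expected counts was estimated by the authors with RSEM on GRCm38, per the submitters' processing notes, and 90.3% of its values were whole. A second deposited table sums to 1000000 in every library, so its values were taken as TPM, although its name gives another unit. The sources used here give neither tool versions nor the strand setting of counting. Totals of 28.0 to 61.3 per library, in units of 1000000 counts, set the precision of low genes.

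Expected counts were rounded, 6 vector entries were left out, and edgeR 4.0.16 quasi-likelihood tests (TMM, filterByExpr, sex as covariate, R 4.3.3) were fitted to the 6 groups of each paradigm and to all 30 groups, with Benjamini-Hochberg adjustment over all genes and a threshold of 0.05. Groups followed the labels. Each library of a group came from another mouse, and the labels' mouse identifiers pair hemispheres. Variance was split on residual log2 CPM (prior count 2) of the 113 mice with 2 libraries. On simulated data this estimate of the share between mice fell short of the share put in, and a form that takes up the degrees of freedom of the group means recovered it. That form was added after the values were seen. Correlations carry permutation p-values that are not adjusted, over 10 members and 45 pairs. Within-mouse comparisons (limma 3.58.1) were added after the comparisons per paradigm that treat libraries as independent had given no call of a member for nZFP against DBD, and a fit of virus and side together was added later, since each pair of viruses always had the same sides. DESeq2 1.42.0 and limma-voom with the mouse as a random effect were alternatives. The random effect used the same correlation within a mouse for all genes, whatever the gene's own share between mice. The members and lists were chosen with earlier results of these data known. Named genes were the 10 members, the 5 genes most like Fos, Arc and Jun with a mean of at least 1 CPM, up to 4 genes per wider list with the smallest geometric mean p in the genotype comparison, and Htt.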

Additional observations from a re-analysis of the deposited data

Results flagged for a closer look

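A library stood far from the others of its group in 18 of 300 tests of a member in a group (6%), where chance flags about 1 in 20, and 11 different libraries were involved. For Fos these were WT nZFP R6 of 2M_8M, the lowest of 8 at 0.970 CPM, and WT nZFP R7 of 6M_10M, the lowest at 4.17 CPM. For Fosb they were WT DBD R2 of 6M_10M (lowest, 17.9 CPM), WT Estop R2 of 6M_8M (lowest, 14.7 CPM), zQ175 DBD R3 of 2M_6M (lowest, 6.52 CPM) and zQ175 nZFP R3 of 6M_12M (highest, 34.8 CPM). For Fosl2 they were WT Estop R2 (lowest, 13.5 CPM) and WT nZFP R8 (lowest, 34.4 CPM), both of 6M_8M. For Jund they were WT nZFP R5 (lowest, 117 CPM) and zQ175 nZFP R2 (highest, 278 CPM) of 6M_10M and zQ175 nZFP R4 of 6M_12M (lowest, 186 CPM). For Arc they were WT DBD R2 of 6M_10M (lowest, 119 CPM) and WT Estop R2 of 6M_8M (lowest, 82.0 CPM), and for Dusp1 WT nZFP R6 of 2M_8M (lowest, 19.1 CPM). For Ier2 they were WT DBD R2 (6.04 CPM) and zQ175 nZFP R2 (6.05 CPM) of 6M_10M, WT nZFP R5 of 2M_8M (3.88 CPM) and zQ175 DBD R3 of 2M_6M (5.83 CPM), each the highest of its group.

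A difference between genotypes in the change under nZFP was flagged in 7 tests. They were 4 of 50 with the mouse as a fixed block (0.972% of all tests passed) and 3 of 10 from Estop to nZFP within mice (11.1% of all genes). From DBD to nZFP within mice 0 of 10 passed (0.0476% of all genes). The call of Dusp1 for that change with side fitted, given above, is not among the 7. With the mouse as a fixed block in edgeR, the log2 change from DBD to nZFP was higher in zQ175 than in WT by 0.38 for Dusp1 in 2M_6M (adjusted p = 0.044), and in 2M_8M by 0.61 for Fosl2 (adjusted p = 0.045), 0.52 for Junb (adjusted p = 0.012) and 0.59 for Dusp1 (adjusted p = 0.0020). Within mice over paradigms, the change from Estop to nZFP was higher in zQ175 by 0.24 for Junb, 0.21 for Arc and 0.19 for Dusp1 in limma. Each pair of viruses always had the same sides, and with side fitted these 3 did not pass (adjusted p = 0.32, 0.40 and 0.17), while the 4 of the mouse block passed with hemisphere added.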

How the results depend on the processing

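Of 173 alternatives to a main count or value, 162 stayed within the same range. Of 50 tests of genotype under DBD, 5 passed with no filter on low counts. In 2M_6M that setting called 3831 of 24397 genes, against 4497 of 15673 with the filter. Of 50 tests of the repressor in zQ175, 1 passed with the replicate number as a replicate block (Jun in 2M_6M, 0.18), 5 with the mouse as a fixed block, with or without hemisphere, and 1 with the length slope as a covariate (Jund in 2M_6M, 0.22). The mouse block called 2.91% of all tests (3.27% with hemisphere). In 2M_6M, of 15673 genes, the length slope called 2875 and the replicate block 3165. Replicate numbers coincide with mice only in part, so that block is not the pairing of the design. Under it the members' median share of variance between mice was 66.6%, and that of Fosb 38.7%. Without the libraries that contradict their labels, 7 tests of genotype under nZFP passed, where paradigms without such libraries kept their values. Over all genes, calls of that comparison in 6M_8M went from 2731 of 16000 to 3172 of 16141. With the mouse as a fixed block 4 interactions passed, with or without hemisphere (1.17% and 0.972% of all tests). Of 4 members that differed between nZFP and Estop within WT mice, 1 passed with virus and side fitted together; the cause was not tested. With Estop in place of DBD, 0 members passed for the repressor in zQ175 averaged over paradigms and 1 in WT, and 3 values changed sign: Fosb for genotype (-0.0038), and Fos (-0.057) and Npas4 (-0.070) for the repressor in zQ175, none of them called. Over single genes, 271 of 298 alternatives kept direction and call, 19 lost the call, 5 gained it and 3 changed sign. The cause of these changes was not tested. Samples of a group are different mice, but mice share cohorts. Ier2 and Npas4, with medians of 2.40 and 4.07 CPM, have the fewest counts.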
